A study of Mus musculus with 26 samples.

Results

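The 40 genes described here make the proteins that copy the genome and then divide it. They were the rows of the deposited tables whose gene name matched a list of 40 cell-cycle genes, out of 55141 genes counted, and each name matched 1 gene. By role they fall into 17 genes of S phase and of the entry into it (the replication genes), 18 genes of mitosis (the mitotic genes) and 5 regulators of G1 (cyclins D and inhibitors of cyclin-dependent kinases). RNA levels of these genes were read in gastruloids, which are free-floating cultures grown from mouse embryonic stem cells that lay down axial tissues of the embryo.

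A dividing cell licenses its origins in G1, when CDC6 and CDT1 load the ring-shaped MCM helicase onto DNA. Cyclin D with CDK4 or CDK6 and cyclin E with CDK2 then inactivate the RB proteins, which frees E2F factors to switch on the replication genes. Mitotic genes are transcribed later, in G2, largely through the MuvB complex with B-MYB and FOXM1, which binds a promoter element named the CHR, and the anaphase-promoting complex then destroys cyclin B so that the cell can leave mitosis. The same genes are low in cells that have left the cycle.

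Polyadenylated RNA was sequenced in 26 libraries, which fall into 15 groups of line and stage, and 8 of the groups hold 1 library. Every line carries the allele HoxB Del/Del(i9-13), the controls included, so that edit is shared by all groups. InvDel7to10 carries Ins(CBS5-10), Inv(CBS5-10) and Del(CBS7-10) on top of it, and InvClone1 and InvClone2 are clone 1 and clone 2 of Ins(CBS5-10) with Inv(CBS5-10). InsDel5to10, InsDel7to10 and InsDel8to10 carry Ins(CBS5-10) with Del(CBS5-10), Del(CBS7-10) and Del(CBS8-10), Ins carries Ins(CBS5-10) alone, and Del carries the shared allele alone. The stages are 96h, 120h, 144h and 168h after aggregation. InvClone1 was sampled at all 4 stages (1, 4, 2 and 1 libraries), Ins and Del at 120h (3 each) and 144h (1 each), InsDel8to10 and InvDel7to10 at both of those (1 each), and the other 3 lines at 120h (2 each). The labels number the clone for InvClone1 and InvClone2, which are thus 1 clone each.

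The labels also name the library, as ISML_first (4 libraries), ISML_second (10), ISML_third (10) or TruSeq_second (2), and these names are not balanced over the groups. Both the 96h and the 168h library are ISML_third and come from InvClone1. Total counts per library ran from 18746411 to 37716547, and the lowest member had a mean of 53.8 CPM (read counts scaled to a common library size), so counting error was small for every member. The share of mitochondrially encoded counts was 0.0864% in the InvClone1 144h replicate 2 library, against 0.587% to 1.51% in the other libraries. Replicate 2 of InvClone1 at 120h had counts in 54.8% of all listed genes, against 37.5% to 43.4% in the others. Of the 40 members, 14 had their lowest level of all 26 libraries in that 144h library. In replicate 1 of InvClone1 at 120h 8 members were at their lowest and 6 at their highest. Values without these 3 libraries are given beside the results they touch, where such values can be computed.

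The promoters of the members were searched for the short DNA words through which E2F and MuvB are known to act. RefSeq promoters of build GRCm38.p6 (250 bases before to 50 after the start) were found for 14 of 17 replication genes, 14 of 18 mitotic genes and 3 of 5 G1 regulators. An E2F word (the word TTCCCGC, the word TTCGCGC, the word TTGCCGC or the word TTGGCGC, on either strand) stood in 9 of the 14 replication promoters (64.3%) and 3 of the 14 mitotic ones (21.4%), beside 10.9% of 27025 genes. A CHR word (the word TTTGAA or the word TTTAAA, on either strand) stood in 13 of the 14 mitotic promoters (92.9%) and 5 of the 14 replication ones (35.7%), beside 30.6% of all genes. A CHR word lay within 60 bases of the start in 11 of the 14 mitotic promoters, beside 10.5% of all genes with a promoter. The CCAAT box, bound by NF-Y, stood in 13 mitotic and 10 replication promoters, beside 41.1% of all genes. A word in this window is a match of letters, not a measured binding site, and the 3 motifs were searched independently and may overlap.

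The 150 bases before the start are printed for 3 replication genes with an E2F word in that window and 3 mitotic genes with a CHR word, as examples of these 2 layouts. They are those of each kind with the smallest p for a change with stage. Of the 6, Rrm1 alone passed the threshold, so the others were chosen after the data were seen. The sequences run 5′ to 3′ on the strand of the gene, with the E2F words in capitals for the replication genes.
Rrm1, chr7:102441545-102441694 (plus strand): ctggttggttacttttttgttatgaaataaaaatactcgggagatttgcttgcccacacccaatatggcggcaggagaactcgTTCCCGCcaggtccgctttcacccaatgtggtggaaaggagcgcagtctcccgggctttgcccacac
Mcm6, chr1:128359706-128359855 (minus strand): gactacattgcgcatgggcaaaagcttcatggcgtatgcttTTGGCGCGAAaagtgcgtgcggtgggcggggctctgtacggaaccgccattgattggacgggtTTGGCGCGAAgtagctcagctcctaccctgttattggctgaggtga
Mcm5, chr8:75109359-75109508 (plus strand): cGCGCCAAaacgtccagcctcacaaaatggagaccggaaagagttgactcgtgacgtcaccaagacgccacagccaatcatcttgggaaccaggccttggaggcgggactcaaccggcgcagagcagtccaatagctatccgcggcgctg
In the mitotic promoters the capitals mark the CHR words.
Top2a, chr11:99024190-99024339 (minus strand): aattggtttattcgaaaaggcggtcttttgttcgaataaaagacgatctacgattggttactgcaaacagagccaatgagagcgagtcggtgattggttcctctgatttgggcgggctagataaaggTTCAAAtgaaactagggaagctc
Cdk1, chr10:69352913-69353062 (minus strand): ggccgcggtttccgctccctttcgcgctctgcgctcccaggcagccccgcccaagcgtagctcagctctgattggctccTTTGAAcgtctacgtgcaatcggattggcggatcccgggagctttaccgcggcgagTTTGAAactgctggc
Mki67, chr7:135716380-135716529 (minus strand): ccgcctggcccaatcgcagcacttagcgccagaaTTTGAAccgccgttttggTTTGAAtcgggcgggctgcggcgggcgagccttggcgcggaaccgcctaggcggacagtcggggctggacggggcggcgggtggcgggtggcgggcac
In Mcm6 2 overlapping E2F words on opposite strands form each capital block. In Cdk1 the nearest CHR word begins 15 bases before the start and in Top2a 23 bases before it, in reverse orientation.

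All 40 members were expressed in every library. Per transcript length, in the FPKM values that the authors deposited, the highest medians over the 26 libraries belonged to Rrm2 (129.6 FPKM), the small subunit of ribonucleotide reductase, Pcna (129.3 FPKM), the sliding clamp of the polymerases, Mcm7 (128.3 FPKM) and Top2a (125.8 FPKM), the topoisomerase that untangles sister chromatids. The lowest were Gins2 (10.7 FPKM), a subunit of the active helicase, and Ccne2 (11.7 FPKM), a cyclin E. Among the G1 regulators Ccnd2 had a median of 80.2 FPKM, Ccnd1 73.9, Ccnd3 60.2, Cdkn1a 31.4 and Cdkn1b 17.7 FPKM. The ranges of the 4 highest genes over the libraries overlapped.

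**Figure D1:**
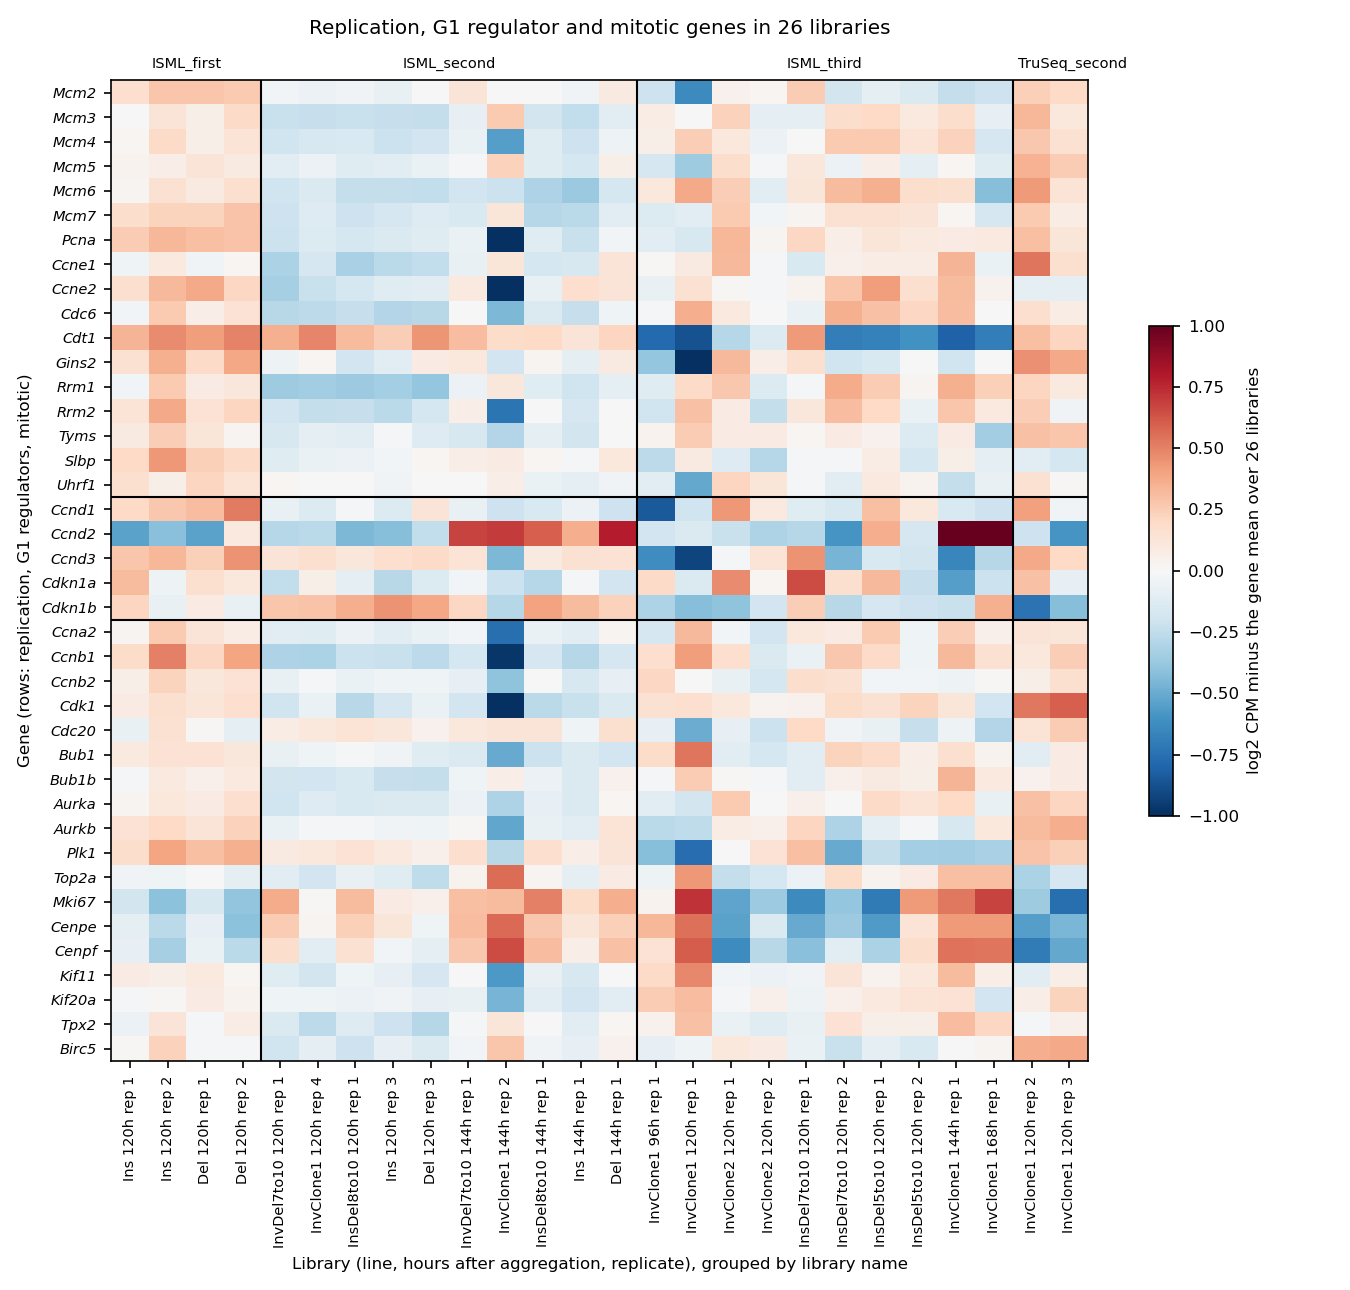
Each cell gives a member's log2 CPM in 1 library minus its mean over 26 libraries, with genes in rows by role and libraries in columns by library name, stage and line. Ccnd2 is higher in every 144h and 168h library than in any of 96h or 120h, and the colours end at 1 log2 unit. Replicate 2 of InvClone1 at 144h holds the lowest value of 14 members.

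The comparison of 168h with 96h asked whether the replication and mitotic programmes differ between the latest and the earliest gastruloids. The 4 ISML_third libraries of InvClone1, 1 per stage, form a course under 1 library name. Over that course the median of the replication genes lay at most 0.18 log2 units from its 96h level and that of the mitotic genes at most 0.24, while Ccnd2, a D-type cyclin, ended 1.47 above it.

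Rrm1, the large subunit of ribonucleotide reductase, had 474, 590, 663 and 610 CPM at 96h, 120h, 144h and 168h. Tyms, which makes thymidylate, had 99.6, 116, 103 and 76.2 CPM, and Mcm6, a subunit of the MCM helicase, had 500, 604, 518 and 346 CPM at the same stages. Both were lowest at 168h and highest at 120h, whereas Rrm1 was lowest at 96h. Gins2 had 45.2, 24.7, 51.2 and 59.0 CPM, with its low value in the 120h library that also held the lowest level of 7 other members. The genes named here were chosen by the smallest p for a change with stage, in a fit that holds these libraries. Of all 17 replication genes 5 were lowest at 96h, 6 at 120h, 0 at 144h and 6 at 168h. Over the 17 replication genes the summed level was 4644, 4867, 5274 and 4671 CPM. The 120h library of this course, replicate 1, is 1 of the 3 that stood apart, and the other 3 InvClone1 libraries of 120h, which carry other library names, summed to 5972, 5346 and 4520 CPM.

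Among the mitotic genes, Top2a had 997, 1393, 1271 and 1272 CPM at 96h, 120h, 144h and 168h. Tpx2, which nucleates spindle microtubules, had 311, 370, 374 and 349 CPM, and Cdk1, the kinase that drives mitosis, had 214, 216, 209 and 168 CPM. Bub1, a kinase of the spindle checkpoint, had 243, 308, 238 and 218 CPM, and Kif20a, a kinesin of the central spindle and cytokinesis, had 287, 299, 265 and 211 CPM. Cdk1, Bub1 and Kif20a were lowest at 168h, and Top2a and Tpx2 were lowest at 96h. These genes were chosen by the smallest p for a change with stage, in a fit that holds these libraries. Of all 18 mitotic genes 9 were lowest at 96h, 3 at 120h, 1 at 144h and 5 at 168h. The summed level of the 18 genes was 4866, 6055, 5751 and 5486 CPM, and 10 of 18 were highest at 120h. The other 3 InvClone1 libraries of 120h summed to 4539, 4724 and 4423 CPM, all below the 96h library, and with each of them in place of replicate 1 the genes highest at 120h were 6, 6 and 2. At 120h the library and its name cannot be told apart in this line.

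The 5 G1 regulators had a wider spread over the course, with a ratio of the highest to the lowest stage above 1.5 in 5 of 5, against 3 of 17 replication genes, 1 of 18 mitotic genes and 38.1% of 4512 genes expressed at least as highly. With replicates 2, 3 and 4 of 120h in place of replicate 1, the replication count was 5, 3 and 2 of 17. The mitotic count was then 7, 6 and 3 of 18, and the G1 regulators stayed at 5 of 5. Ccnd2, on chromosome 6 from 127125162 to 127152193 (mm10, as in the deposited FPKM table), had 624, 643, 1431 and 1724 CPM at 96h, 120h, 144h and 168h, level between the first pair of stages and higher at both later ones. Ccnd1, the classical cyclin D, had 194, 301, 312 and 301 CPM, low at 96h alone. Ccnd3, the third cyclin D, had 85.5, 69.7, 83.5 and 108 CPM. Cdkn1b, the inhibitor p27, had 48.2, 44.7, 51.2 and 76.5 CPM, highest at 168h, and Cdkn1a, the inhibitor p21 and a p53 target, had 84.0, 66.8, 50.4 and 63.3 CPM, highest at 96h.

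Between 168h and 96h edgeR called 15.3% of 17769 genes changed (8.56% higher and 6.75% lower), with the 26 libraries in 1 fit with terms for group and library name. Of the 40 members 1 was called, Ccnd2, at a log2 fold change of 1.46 ± 0.31 (SE, adjusted p = 0.00802). No replication gene (0 of 17) and no mitotic gene (0 of 18) passed edgeR's quasi-likelihood test, while at an unadjusted p under 0.05 there were 2 replication genes, 1 mitotic gene and 3 G1 regulators, and DESeq2 called Ccnd2 and Kif20a. The log2 fold change was positive for 9 of 17 replication genes and 11 of 18 mitotic genes. Its median was 0.03 for the replication genes, from -0.54 (Mcm6) to 0.38, and 0.09 for the mitotic genes, from -0.46 (Kif20a) to 0.63 (Mki67, the proliferation antigen Ki-67), beside 0.05 over all genes. The nearest to the threshold after Ccnd2 was Kif20a (-0.46 ± 0.15, adjusted p = 0.0509). With 1 library per stage, the lone libraries were taken to vary as the replicated groups do. The 95% interval lay within 1 log2 unit of 0 for 16 of 17 replication and 16 of 18 mitotic genes. Without the 3 libraries that stood apart, Ccnd1, Ccnd2 and Kif20a were called, and each of 6 fits without 1 InvClone1 library of 120h or 144h called Ccnd2 with either Kif20a or Ccnd1.

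**Figure D2:**
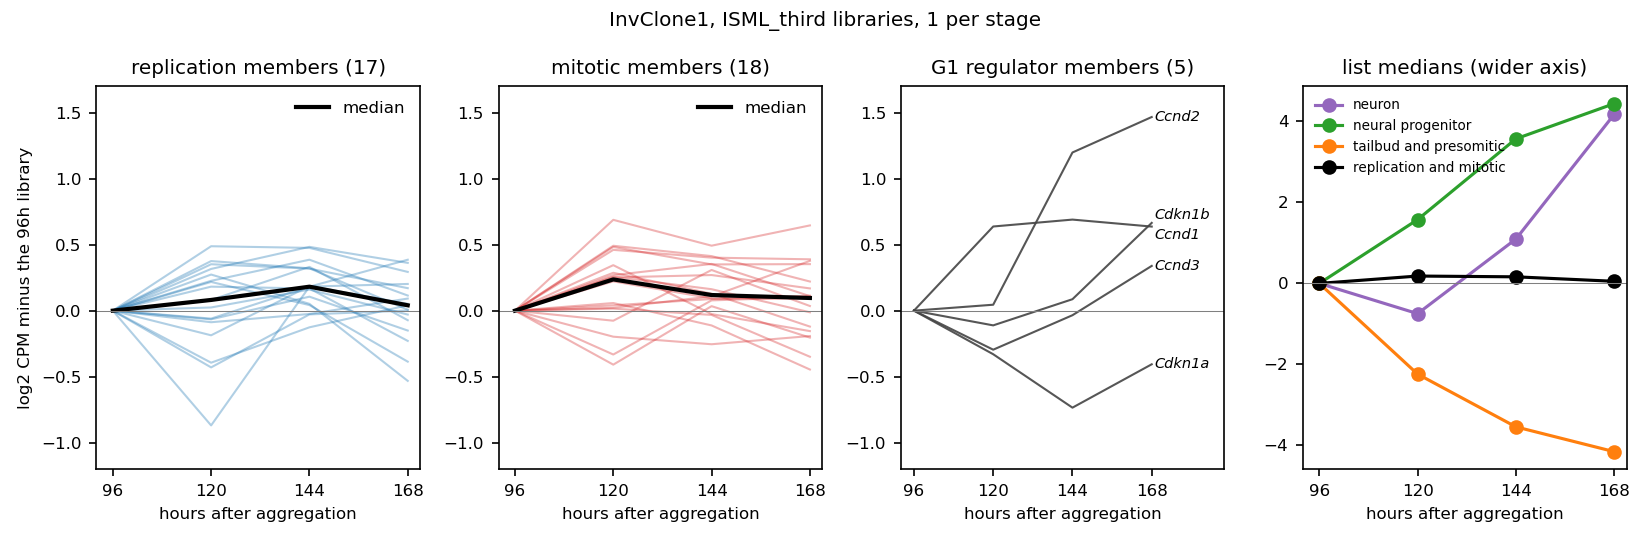
Log2 CPM minus the 96h library (y axis) against hours after aggregation (x axis) in the 4 ISML_third libraries of InvClone1, 1 line per gene, with medians in black, and list medians on a wider axis at the right. The median of the replication genes ends 0.04 and that of the mitotic genes 0.10 above 96h, while Ccnd2 ends 1.47 above it.

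Markers of neurons, of neural progenitors and of tailbud and presomitic tissue moved far more in the same libraries. Of 15 neuron markers 10 were called higher at 168h (median log2 fold change 4.19), as were 9 of 14 neural progenitor markers (median 4.47), and 11 of 14 tailbud and presomitic markers were called lower (median -4.18). Their summed levels at 168h and at 96h were 862 and 64.5 CPM for neurons, 1441 and 605 CPM for neural progenitors and 299 and 2155 CPM for the tailbud and presomitic list. Neurod4 and Dbx1 were at 0 in the 96h library, and Msgn1 was at 0 in the 168h library. The list median of log2 CPM minus the gene mean, at 96h and 168h, was -0.89 and -0.99 for somite and muscle markers. It was -0.36 and 0.16 for endoderm, -1.55 and 0.13 for endothelial and blood, and 1.15 and -0.54 for pluripotency markers. The part of these shifts in the levels of the members was not tested, and fewer cells of a type and less RNA per cell cannot be told apart in bulk samples.

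A slope over all stages used every library, with terms for line and library name and stage as a number in units of 24 h. It called 24.5% of 16847 genes (13.2% higher with time and 11.3% lower) and 3 of the 40 members. Ccnd2 rose by 0.68 ± 0.09 log2 units per 24 h (SE, edgeR adjusted p = 1.85e-05) and Rrm1 rose by 0.18 ± 0.06 (adjusted p = 0.0281), while Kif20a fell by 0.15 ± 0.04 (estimate -0.15, adjusted p = 0.00779). Thus 1 of 17 replication genes, 1 of 18 mitotic genes and 1 of 5 G1 regulators passed. The median slope was 0.03 for the replication and 0.03 for the mitotic genes, beside 8.25e-05 over all genes, and the 95% interval lay within 0.5 log2 units per 24 h of 0 for all 17 replication genes and all 18 mitotic genes. Slopes that did not pass ran from -0.15 (Cdk1) to 0.17 (Cenpf, a kinetochore protein).

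Over all libraries of a stage, Ccnd2 was at 624 CPM at 96h, at 472 to 916 CPM (median 584, 18 libraries) at 120h, at 916 to 1431 CPM (median 1147, 6 libraries) at 144h and at 1724 CPM at 168h, so that the 120h and 144h ranges met and did not cross. Kif20a was at 287 CPM at 96h, at 228 to 299 CPM (median 245) at 120h, at 174 to 265 CPM (median 224) at 144h and at 211 CPM at 168h. Rrm1 was at 474 CPM at 96h, at 395 to 667 CPM (median 537) at 120h, at 449 to 663 CPM (median 491) at 144h and at 610 CPM at 168h. The 120h and 144h ranges of Kif20a and Rrm1 overlapped widely. The 26 fits that left out 1 library called 2776 to 4623 genes. Without the 168h library Kif20a lost its call (edgeR adjusted p = 0.139) and 6 members were called. Rrm1 lost its own without the 96h library (adjusted p = 0.105), without either library of InsDel8to10 or of InvDel7to10, and without replicate 4 of InvClone1 at 120h. Ccnd2 kept its call in all 26 fits that left out 1 library. Without the 3 libraries that stood apart, Top2a was called beside these 3. Of those libraries, replicate 1 of InvClone1 at 120h was set apart by the members' own levels. It held 1393 CPM of Top2a, against 826 to 915 CPM in the other InvClone1 libraries of 120h. Leaving it out thus favours a rise of Top2a, and this call is no independent result.

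**Figure D3:**
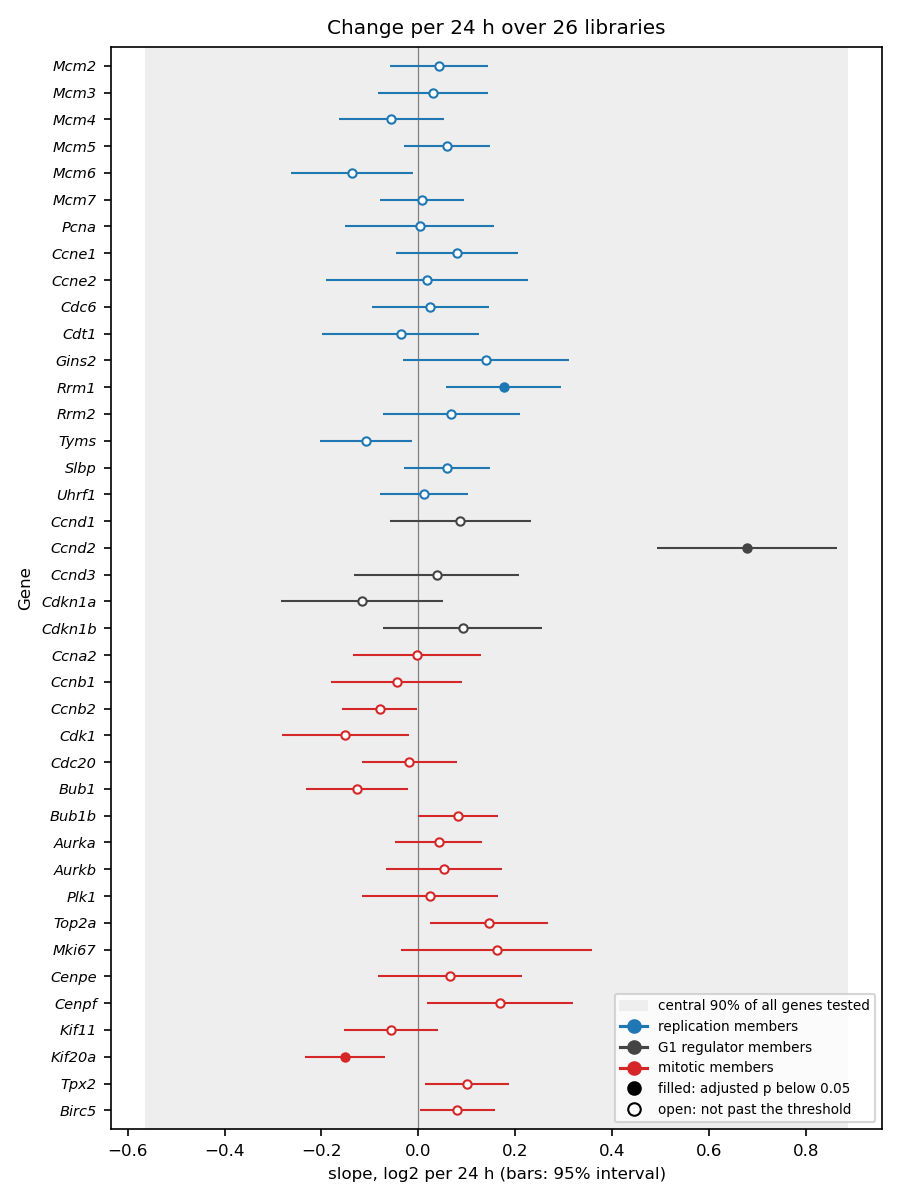
Slope per 24 h on the log2 scale (x axis) with its 95% interval for the 40 members (y axis), filled where the adjusted p was below 0.05, over a grey band with the central 90% of all genes tested. Ccnd2 lies at 0.68, and the replication and mitotic genes all lie between -0.15 and 0.18.

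A stage comparison within 1 library name was possible for 5 lines, each with an ISML_second library at 144h and at 120h. Ccnd2 had 1139, 1155, 1077, 916 and 1227 CPM at 144h in InvDel7to10, InvClone1, InsDel8to10, Ins and Del, against 585, 592, 522, 530 and 599 CPM at 120h in the same order, and the stages did not overlap. Rrm1, on chromosome 7 from 102441695 to 102469771, had 498, 560, 475, 449 and 484 CPM at 144h in these lines, against 405, 406, 402, 408 and 395 CPM at 120h. The stages did not overlap for Rrm1 either. Ccne1, a cyclin E that drives entry into S phase, had 65.5, 74.9, 60.9, 61.6 and 75.2 CPM at 144h, against 55.3, 61.3, 55.0, 57.1 and 58.1 CPM at 120h, and was higher at 144h in 5 of 5 lines though the ranges crossed.

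In that comparison edgeR called 15.1% of 16043 genes (9.33% higher and 5.81% lower at 144h) and 3 of 40 members, all higher. Ccnd2 rose by 0.97 ± 0.06 on the log2 scale (SE, adjusted p = 7.09e-05), Rrm1 by 0.29 ± 0.07 (adjusted p = 0.0221) and Ccne1 by 0.24 ± 0.07 (adjusted p = 0.0431). Of the replication genes 2 of 17 passed (median log2 fold change 0.04), and of the mitotic genes 0 of 18 (median -0.01; 6 at an unadjusted p under 0.05, and 0 by DESeq2, which called Ccnd2 and Rrm1), beside a median of -0.01 over all genes. Rrm1 kept its call when the InvClone1 pair was left out and lost it when any other line was left out, and so did Ccne1.

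The InvClone1 pair differed from the others. Its 144h library, the one low in mitochondrial counts, had 17.7 CPM of Ccne2 against 49.8 to 58.8 CPM in the other 4, 135 CPM of Pcna against 255 to 292 CPM, and 105 CPM of Ccnb1, the mitotic cyclin B, against 169 to 184 CPM. In it the mitotic genes lay at a median of -0.28 log2 units from the 120h library of the line, and between -0.02 and 0.16 in the other lines. In the 4 pairs without InvClone1, 31.2% of 15832 genes and 13 members were called, 11 higher and 2 lower at 144h. They were 6 of 17 replication genes, 6 of 18 mitotic genes and Ccnd2. The replication genes that rose were Rrm1 (0.24 ± 0.03, adjusted p = 5.92e-05), Rrm2 (0.19 ± 0.03), Ccne2 (0.26 ± 0.05), Ccne1 (0.21 ± 0.05) and Cdc6, the MCM loader (0.16 ± 0.04), and Cdt1, the partner of Cdc6, fell by 0.13 ± 0.04. The mitotic genes that rose were Tpx2 (0.16 ± 0.04), Bub1b, the checkpoint protein BubR1 (0.14 ± 0.04), Cenpf (0.18 ± 0.04), Top2a (0.14 ± 0.04) and Birc5, the passenger protein survivin (0.13 ± 0.04), and Bub1 fell by 0.12 ± 0.03. Ccnd2 rose by 0.95 ± 0.04, and the other changes lay between -0.13 and 0.26. The edgeR adjusted p ran from 1.89e-10 to 0.0240 over these 13 genes, and this fit was chosen after the data were seen.

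In the same 5 pairs 13 of 15 neuron markers and 12 of 14 neural progenitor markers were called higher at 144h, 2 neural progenitor markers lower, and 13 of 14 tailbud and presomitic markers lower. Over all libraries the summed neuron markers were at 119 to 344 CPM at 144h and at 45.9 to 110 CPM at 120h, and the tailbud and presomitic ones at 231 to 487 CPM at 144h and at 646 to 1156 CPM at 120h. Their part in the changes of Ccnd2, Rrm1 and Ccne1 was not tested.

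Genes of the same pathways outside the 40 were described from lists of 50 replication genes, 50 mitosis genes and 20 G1 regulators. In the slope 10 of 50 other replication genes were called, 5 higher and 5 lower with time, a share of the list no larger than the 24.5% of all genes called. E2f2, an E2F factor that activates S-phase genes, rose by 0.81 ± 0.08 log2 units per 24 h (edgeR adjusted p = 7.35e-07). Its level was 6.72, 19.1, 31.3 and 48.5 CPM over the 96h to 168h course of InvClone1. The origin recognition subunits Orc1, Orc5 and Orc3 fell, by 0.27 ± 0.05, 0.27 ± 0.05 and 0.25 ± 0.06 per 24 h. Orc1 had 67.8, 44.0, 37.4 and 31.8 CPM over the same course.

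Of 50 other mitosis genes 11 were called, 10 higher and 1 lower with time, near the share of all genes called (24.5%, with 13.2% higher and 11.3% lower). Cdc25b, the phosphatase that activates CDK1, rose by 0.65 ± 0.10 per 24 h (edgeR adjusted p = 1.20e-04) and was at 19.1, 13.7, 28.5 and 74.6 CPM over the course. Cdca8, the passenger protein borealin, rose by 0.33 ± 0.05, Racgap1, a GTPase activator of cytokinesis, by 0.24 ± 0.04, and Prc1, which bundles midzone microtubules, by 0.17 ± 0.04. The 18 mitotic members, whose count was 0 higher and 1 lower, and these 50 genes were not tested against each other.

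Of 20 other G1 regulators 7 were called, 4 higher and 3 lower, beside 24.5% of all genes (13.2% higher and 11.3% lower). Cdkn1c, the inhibitor p57, rose by 1.47 ± 0.24 per 24 h (edgeR adjusted p = 1.69e-04), and Rb1, which encodes the RB protein, by 0.56 ± 0.09 (adjusted p = 1.73e-04). Cdkn1c was at 0.607, 3.00, 4.86 and 12.7 CPM and Rb1 at 19.9, 32.4, 47.4 and 71.4 CPM over the course, each higher at every later stage. The other InvClone1 library of 144h, the one low in mitochondrial counts, had 42.6 CPM of Cdkn1c, above the 168h library, and 20.5 CPM of Rb1, below the ISML_second library of 120h. In the other 4 lines Cdkn1c and Rb1 were each higher at 144h than at 120h. Cdk6, a partner of the D cyclins, fell by 0.25 ± 0.05 per 24 h, and Mycn, a growth-promoting transcription factor, fell by 0.36 ± 0.08. Mycn was at 118, 59.9, 48.8 and 49.8 CPM over the course. Without the 96h library the slopes of Orc1 and Mycn lost their calls (edgeR adjusted p = 0.0538 and 0.121), and the other genes named from these lists kept their calls in all 26 such fits.

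**Figure D4:**
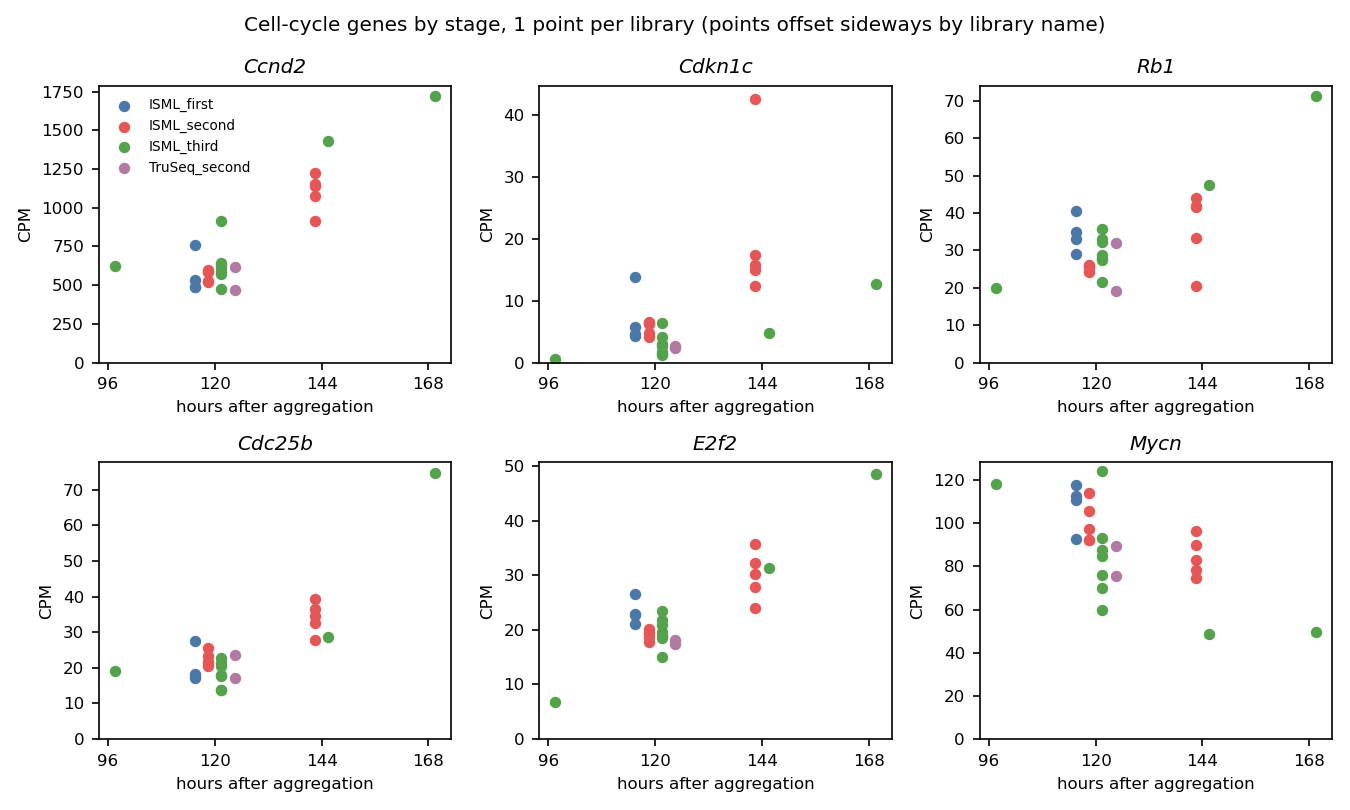
CPM (y axis) against hours after aggregation (x axis) for Ccnd2, Cdkn1c, Rb1, Cdc25b, E2f2 and Mycn, 1 point per library coloured by library name. Ccnd2 lies at 472 to 916 CPM at 120h, at 916 to 1431 CPM at 144h and at 1724 CPM at 168h, and Mycn ends at 49.8 CPM.

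Several of these genes passed in the narrower comparisons as well. Between 168h and 96h 5 of 50 other replication genes were called, E2f2 (2.84 ± 0.25), E2f1 (0.66 ± 0.16), Orc1 (-1.11 ± 0.17), Orc5 (-0.78 ± 0.18) and Dut, which removes dUTP (-0.78 ± 0.22), beside 15.3% of all genes. Of the other mitosis genes 7 of 50 were called, among them Cdc25b (1.96 ± 0.31), a share also below that of all genes, and of the other G1 regulators 5 of 20, among them Cdkn1c (4.37 ± 1.22), Rb1 (1.83 ± 0.38) and Mycn (-1.26 ± 0.30). Cdkn1c lost this call with the replicate block and with no library term (edgeR adjusted p up to 0.0687 over its alternatives). Between 144h and 120h in ISML_second the calls were E2f2 (0.65 ± 0.09) of the 50 replication genes, Cdc25b (0.61 ± 0.11), Cdca8 (0.36 ± 0.07) and Prc1 (0.31 ± 0.07) of the 50 mitosis genes, and Cdkn1c (1.74 ± 0.28), Cdkn2b (1.83 ± 0.45) and Myc (-0.63 ± 0.10) of the 20 G1 regulators, beside 15.1% of all genes. Cdkn2b was near the floor, at 0.403 to 0.830 CPM at 144h and at 0 to 0.361 CPM at 120h in these lines. Cdca8 and Prc1 lost the call in 3 of 5 fits without 1 line. E2f1, Dut, Cdkn2b and Myc were named after their values were seen. The 168h and 96h libraries and the ISML_second libraries are also part of the slope, so these 3 results share libraries.

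The lines were compared at 120h to ask whether the edits at HoxB go with a change in these genes. No member passed the edgeR threshold in a test over all lines. InsDel5to10, InsDel7to10 and InvClone2 have only ISML_third libraries and Del has none, so their part of this test rests on the fitted library term. Their estimates against Del were wide, as from -1.01 to 0.80 for the replication genes in InvClone2. The joint test over the 8 lines called 0.163% of 17769 genes and 0 of 40 members (edgeR, 3 members at an unadjusted p under 0.05, lowest adjusted p 0.200 for Kif11, the spindle motor Eg5). DESeq2 called 4 members in this test, Bub1, Kif11, Top2a and Uhrf1, a factor that maintains DNA methylation after replication, among 1416 genes. Leaving out replicate 2 of InsDel7to10 gave 3 members (Bub1, Cdt1 and Kif11), and leaving out replicate 4 of InvClone1 gave Ccne2. The fits without 1 library called 4 to 1305 genes in this test, against 29 genes with all libraries. Member counts of these fits are therefore not read apart from the number of all genes called.

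In the 5 ISML_second libraries at 120h, 1 per line, the ratio of the highest to the lowest line had a median of 1.07 over the 40 members and reached 1.28, with 0 of 40 above 1.5. For 4512 genes expressed at least as highly the median was 1.11. At 144h under the same library name the median over members was 1.32, with 11 of 40 (27.5%) above 1.5, and for those 4512 genes it was 1.36, with 34.2% above 1.5. Without the InvClone1 library, the one low in mitochondrial counts, the median at 144h was 1.13 over the members, with 0 of 40 above 1.5 and a highest ratio of 1.34 (Ccnd2), and 1.10 over the 4512 genes, with 1.48% above 1.5. Over all 18 libraries of 120h it was 1.65 for the members and 1.63 for the genes at least as high.

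InsDel7to10 against InsDel5to10, 2 libraries each and all ISML_third, gave 0.253% of genes and 0 of 40 members (lowest adjusted p 0.396, for Ccnd2; edgeR, 2 members at an unadjusted p under 0.05). Without replicate 2 of InsDel7to10 Cdt1 was called. InvClone1 against Ins gave 0.0169% of genes and 0 of 40 members, with 0 members at an unadjusted p under 0.05 as well. The largest difference between the means of the fit was in Ccne2, at -0.41 ± 0.27. Without replicate 4 of InvClone1, the ISML_second library, 3 members were called, Ccne2, Cdk1 and Pcna, and without the 3 libraries that stood apart 0 were. The 7 fits without 1 library called 3 to 303 genes. Ins against Del, 3 libraries each with the same library names, gave 0.00563% of genes and 0 of 40 members, also with 0 at an unadjusted p under 0.05, and 37 of 40 members had a 95% interval within 0.5 log2 units of 0. With the replicate number as a block in a fit of these 6 libraries 2 genes were called in place of 1, and 0 members.

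Ccnd2 was at 490, 533 and 530 CPM in Ins and at 491, 762 and 599 CPM in Del at 120h, with ranges that overlap. Top2a was at 1004, 998 and 946 CPM in Ins and at 1025, 964 and 866 CPM in Del, and Ccnb1 at 234, 292 and 176 CPM in Ins and at 238, 270 and 172 CPM in Del. In both lines the low value of Top2a and Ccnb1 is replicate 3, the ISML_second library. Against Del, the single call among members over the 7 other lines was Kif11 in InvClone2, which fell by 0.68 ± 0.16 (estimate -0.68, edgeR adjusted p = 0.0430) where 2.4% of all genes were called. The shares of genes called against Del were 0.186% in InsDel7to10, 0.0225% in InvClone1, 0.0169% in InvDel7to10 and 0% in InsDel5to10 and InsDel8to10. Kif11 was at 243 and 237 CPM in InvClone2 and at 264, 250 and 220 CPM in Del, so the measured levels overlap. InvClone2 has ISML_third libraries and Del has none, so that contrast rests on the fitted library term. ISML_third shares a line and stage with another name in InvClone1 alone, through replicate 1 at 120h and the pair at 144h. From there its link to ISML_first runs through ISML_second and the Ins and Del libraries of 120h. The term cannot be fitted without the 3 libraries that stood apart. Kif11 lost this call in 12 of 14 fits that left out 1 library of InvClone1, InvClone2, Del or Ins (edgeR adjusted p up to 0.337). Without replicate 1 of InvClone1 at 120h it was called with 6 other members, in a fit that called 10.3% of all genes. Without replicate 2 at 144h the estimate of Kif11 was -0.55.

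The library name was tested at the same line and stage. A joint test of the library terms called 37.5% of genes and 23 of 40 members, 10 of 17 replication genes, 12 of 18 mitotic genes and 1 of 5 G1 regulators. In the ISML_second libraries all 17 replication genes were estimated lower than in ISML_first (median log2 difference -0.25, from -0.42 to -0.03), as were 14 of 18 mitotic genes (median -0.14), beside 0.04 over all genes, and 0 of these passed singly (edgeR, 2.3% of all genes called in that contrast). Between ISML_third and ISML_first 12.1% of genes were called, and among members Kif11 was higher (0.61 ± 0.14) and Cdt1 (-1.25 ± 0.34), Mcm2 (-0.68 ± 0.18) and Uhrf1 (-0.56 ± 0.15) were lower (edgeR adjusted p from 0.0174 to 0.0337). In the same 14 fits without 1 library Kif11 kept this call in 10, Mcm2 in 6, Uhrf1 in 6 and Cdt1 in 4. Without replicate 1 of InvClone1 at 120h Kif11 alone of these 4 kept it, and without replicate 2 at 144h Mcm2 and Uhrf1 did. Without all 3 libraries that stood apart no line and stage holds ISML_third beside another name, so its term and the joint test over the names could not be fitted. The joint test called 15 members without replicate 1 of InvClone1 at 120h. Fits of this test without 1 library called 3960 to 7351 genes, against 6657 with all libraries, so member counts moved beside those of all genes. The labels give the kit of each library and nothing more on what the names stand for.

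The replication and mitotic genes were set side by side in each library by the median over each list of log2 CPM minus the gene's mean over the 26 libraries. The replication median ran from -0.20 to 0.27 and the mitotic median from -0.29 to 0.30. The mitotic minus the replication median was 0.15, 0.21, 0.14 and 0.14 in InvClone1 at 96h, 120h, 144h and 168h (ISML_third), close to level over these 4 libraries. At 120h it was -0.20 and 0.02 in the 2 TruSeq_second libraries, which are also InvClone1, 0.04 to 0.12 in the 5 ISML_second libraries, -0.12 to -0.07 in the 4 ISML_first libraries, and -0.20 to 0.21 in the 7 ISML_third libraries. The 144h library of InvClone1 low in mitochondrial counts had -0.29, the lowest of all, and the other 4 ISML_second libraries at 144h had -0.01 to 0.07. No test was made of these list medians.

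**Figure D5:**
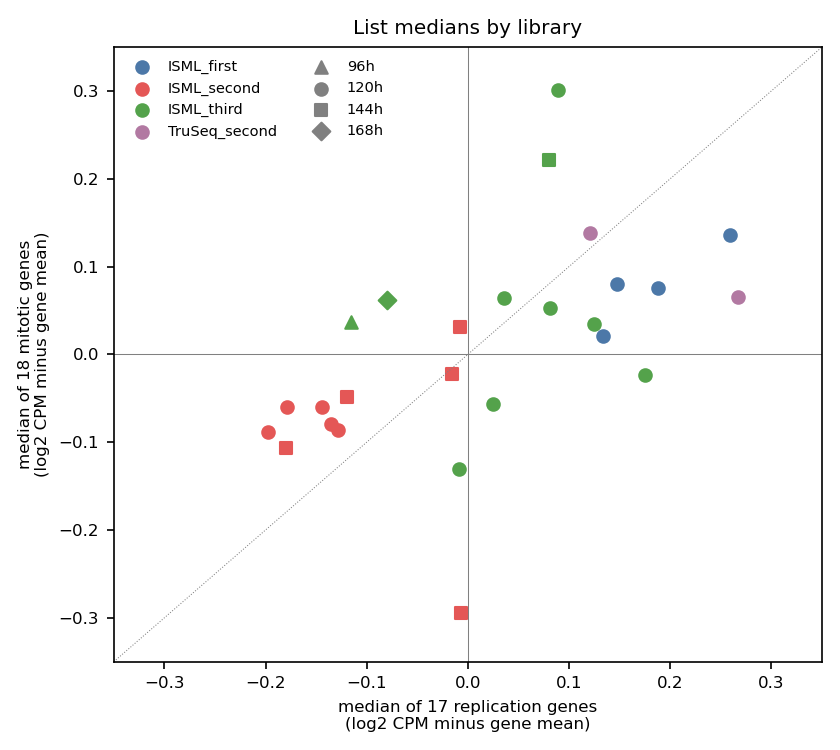
Median of the 18 mitotic genes (y axis) against the median of the 17 replication genes (x axis), each as log2 CPM minus the gene's mean over 26 libraries, 1 point per library, with colours for the library name and shapes for the stage. The ISML_second libraries of 120h lie at -0.20 to -0.13 on the x axis and the ISML_first libraries at 0.13 to 0.26, and the 96h and 168h libraries lie close to each other.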

How the data were processed

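Raw read counts per gene, deposited by the authors for 55141 genes and not normalized, were used for all tests. The authors' deposited FPKM values (Cufflinks) gave gene names, positions and levels per length. The submitters' processing notes list Cufflinks 2.2.1, STAR 2.7.10a, cutadapt 1.18 and the build mm10, and HTSeq is named in the title of the deposited count table. No strand setting or annotation release is stated in the labels, so genes that overlap, lie antisense to each other or have near-identical copies are uncertain. Positions were raised by 1, since 12971 starts then equal those of RefSeq and 802 as written. Columns that match no sample (8 over both tables) were not used, and 3 gene identifiers had no FPKM row and so no name.

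Groups, stages and library names came from the labels. Counts were tested in edgeR 4.0.16 (R 4.3.3) with the quasi-likelihood F-test, robust dispersion, TMM scaling, a minimum count of 10 and Benjamini-Hochberg adjustment over all genes tested (threshold 0.05). All 40 members passed the filter in every fit. The fits were group with library name (26 libraries, 8 residual degrees of freedom), line with library name and stage (26 libraries, 14), and line with stage (10 ISML_second libraries, 4, or 8 libraries, 3, without InvClone1). CPM used TMM library sizes, and 0.1 CPM was added before logs of list medians. DESeq2 1.42.0, other size factors, other filters, fits without the library term, a replicate block and fits without single libraries were alternatives. The 3 stage comparisons were also run on simulated counts with known changes. Those counts held no differences between library names or lines, so they do not test the library terms.

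The members and lists were chosen with earlier results of these data known. All members could be named. Values over the course are given for the 4 replication and 5 mitotic genes with the smallest slope p and all G1 regulators, and from each other list for up to 4 called genes with the smallest slope p. No p is given for a score over members. Replicates of a group differed by 14.7 to 200.3 in chi-square per degree of freedom. No label ties replicates to separate cultures, and p-values therefore reflect a spread between samples that may be technical. Deviations of same-numbered Ins and Del libraries correlated (r = 0.52, 0.27 and 0.65 across genes), and replicate 3 of both is ISML_second. Replicate 2 of Ins correlated more with replicate 1 of Del (r = 0.30), so the data do not settle the pairs, and no label names them. Replicate numbers served as a block in alternative fits only. Intervals are 95% intervals.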

Additional observations from a re-analysis of the deposited data

Results flagged for a closer look

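In the 4 InvClone1 libraries of 120h, 2 of 40 members had 1 library far from the other 3. Chance alone gives this in about 1 group of 20, which is the share found here. Tyms was at 90.5 CPM in replicate 4, the ISML_second library, and at 116 to 119 CPM in the others. Top2a was at 1393 CPM in replicate 1, the ISML_third library, and at 826 to 915 CPM in the others. These 4 libraries carry 3 library names, so the library and the name cannot be told apart.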

How the results depend on the processing

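Ccnd2 kept its call and direction in all 36 alternatives of the slope, all 13 of 168h minus 96h and all 10 of 144h minus 120h. Rrm1 kept its slope call in 26 of 36, Kif20a in 32 of 36 and Ccne1 its 144h call in 4 of 10; over all 42 calls of single genes, 126 of 941 alternatives lost the call and 0 turned its direction. Members called between 168h and 96h were 1, and 2 with DESeq2, 3 with no filter, 3 with a minimum count of 50 and 3 without the 3 libraries that stood apart (chosen after seeing the data); genes were 2720, and 1307 with no library term. In the slope 3 members were called, 5 with no filter and 1 in the InvClone1 libraries alone, with 4135 genes against 2681 in the 120h and 144h libraries and 1090 in InvClone1. Between 144h and 120h 5 members were called with no line term in place of 3. Over the lines 29 genes and 0 members became 1416 and 4 with DESeq2, 2334 and 6 with no filter, and 4 genes with no library term. Ins minus Del gave 1 gene, 2 with DESeq2, 89 with no filter and 2 with the replicate block in a fit of these libraries. InvClone1 minus Ins gave 3 genes and 9 with no filter. InsDel7to10 minus InsDel5to10 gave 45 genes, 290 with DESeq2, 957 with no filter (and 3 members), 70 with the replicate block, 7 with no library term, 3 with the replicate block in those libraries alone and 4 with the block crossed. The library name gave 6657 genes and 23 members, and 3599 and 15 with the replicate block; without the 3 libraries this test could not be fitted, since ISML_third then shares no line and stage with another name. With the replicate block the slope called Ccnd2 and Kif20a and not Rrm1, and no other count moved by more than 1.5 times. The causes were not tested.

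Leaving out 1 library gave 2654 to 3033 genes and 2 members between 168h and 96h, 2776 to 4623 genes and 2 to 6 members in the slope, 4 to 1305 genes and 0 to 3 members over the lines, and 3960 to 7351 genes and 15 to 30 members for the library name. Leaving out 1 line gave 1424 to 4934 genes and 1 to 13 members between 144h and 120h. The ranges were 1 gene and 0 members for Ins minus Del, 3 to 303 genes and 0 to 3 members for InvClone1 minus Ins, and 3 to 939 genes and 0 to 1 member for InsDel7to10 minus InsDel5to10. Same-numbered libraries of InsDel7to10 and InsDel5to10 deviated apart (r = -0.15) and those of InvClone1 and Ins did not all deviate together (r = 0.18, 0.40 and 0.05).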

Other observations

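Targets of p53 other than Cdkn1a, which include brakes on growth and repair genes, had 3 of 18 tested members called in the slope over stages, beside 24.5% of all genes. Btg2, an anti-proliferative gene, rose by 0.28 ± 0.09 log2 units per 24 h, while Rps27l fell by 0.28 ± 0.08 and Aen, an exonuclease, fell by 0.14 ± 0.05 (edgeR adjusted p = 0.0325, 0.0159 and 0.0476). Btg2 was at 42.1, 26.9, 35.5 and 72.2 CPM and Rps27l at 155, 128, 116 and 87.9 CPM at 96h, 120h, 144h and 168h in InvClone1. Without the 168h library the edgeR adjusted p was 0.589 for Btg2 and 0.101 for Rps27l, and of the 26 fits without 1 library Aen lost its call in 15 (adjusted p up to 0.562) and Btg2 in 7. Plk2 was the 1 of 19 called between 168h and 96h (1.38 ± 0.30), beside 15.3% of all genes. Sesn2 (-0.52 ± 0.09) and Psrc1 (-0.28 ± 0.06) were the 2 of 18 called between 144h and 120h, beside 15.1% of all genes. Psrc1 was also the 1 called between InsDel7to10 and InsDel5to10 (0.91 ± 0.13), beside 0.253% of all genes. Plk2, Sesn2 and Psrc1 were named after their values were seen.

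Of the markers of other tissues in the slope, 11 of 15 neuron and 12 of 14 neural progenitor genes were called higher and 12 of 14 tailbud and presomitic genes lower. Somite and muscle genes had 2 called higher and 5 lower of 12, endoderm genes 2 higher and 1 lower of 12, endothelial and blood genes 1 higher and 1 lower of 8, and pluripotency genes 0 higher and 1 lower of 12.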
